A study of Saccharomyces cerevisiae with 16 samples.

Results

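The yeast cytosolic ribosome is built from ribosomal proteins (RPs) whose genes, many of them in paralogous pairs, hold a large part of the introns of the *Saccharomyces cerevisiae* genome. The RP genes that have no intron at all are described here. They are the RPL, RPS and RPP genes of the coding sequence (CDS) count table with no entry in the intron table or the 5′ untranslated region (5′ UTR) intron table, and they number 36 of the 137 RP genes, which leaves 101 RP genes with an intron. The 36 genes comprise 20 of the large subunit, 4 of the ribosomal stalk (*RPP0*, *RPP1A*, *RPP2A* and *RPP2B*) and 12 of the small subunit. In the reference annotation of the same R64 assembly all 36 have 1 exon, and all 36 have the CDS coordinates used in the count table. All 36 passed the filter of a mean of at least 10 reads over the 8 libraries of each type.

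RNA of 8 samples was sequenced, each as a polyadenylated and as a ribo-depleted library, giving 16 libraries. The samples were LiCl-treated Rps22B–GFP cells sorted by GFP into a high and a low population, a LiCl-treated culture labelled as *RPS22B*-GFP with the 5′ UTR intron deleted, and wild-type cultures in LiCl, 0.32 µg/ml myriocin (an inhibitor of sphingolipid synthesis), 0.85 µM fenpropimorph (an inhibitor of ergosterol synthesis), 0.4 M NaCl or 20% glucose, all in YPD medium. LiCl, myriocin and fenpropimorph cultures were those closest to 50% growth inhibition, whereas the NaCl and the glucose culture each had 1 fixed concentration and were not matched in growth inhibition. The labels give re-inoculation every 8 h over 24 h for all samples, the Methods give a shorter exposure for the sorted cells, and the genotype label of the sorted cells names an mCherry marker in the ribo-depleted libraries but not in the polyadenylated ones. Each condition has 1 library per type and therefore no replicate, so the intervals below are 95% intervals of counting error and no test between conditions was possible.

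RP genes are among the most strongly transcribed genes of growing yeast and are regulated together with growth through the target of rapamycin and protein kinase A pathways, with Rap1, Fhl1, Ifh1 and Sfp1 acting at their promoters. Large-subunit and small-subunit proteins are needed in equal numbers, and unassembled RPs are bound by dedicated chaperones or degraded. In the stalk, P0, encoded by *RPP0*, binds ribosomal RNA and carries P1 and P2 proteins, which recruit the translation factors that hydrolyse GTP.

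Total CDS reads were between 29557254 and 50337762 in polyadenylated libraries and between 36377857 and 53234402 in ribo-depleted libraries. The 16 libraries were not all of 1 strain background. In the sorted and the deletion-labelled libraries *LYS2* held 2 to 5 reads, *HIS3* 0 or 1 read and *MET17* 1225 to 40541 reads, whereas in the wild-type libraries *LYS2* held 4741 to 13584, *HIS3* 1120 to 5097 and *MET17* 0 or 1. The deletion-labelled libraries also held 594 (polyadenylated) and 269 (ribo-depleted) reads in the *RPS22B* 5′ UTR intron, against 285 and 165 in LiCl-treated wild type. On the *RPS22B* CDS they held 4422 and 2137 reads, against 1085 and 424. Differences between these strains and wild type therefore cannot be told apart from the strain background. In polyadenylated libraries the sorted samples stood apart from all others in their RP levels. The normalization was also run without the sorted and the deletion-labelled libraries. This moved the median of the intronless RP genes by at most 0.03 on the log2 scale in the 5 comparisons between wild-type cultures.

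Levels are given as CPM, that is reads scaled to a common effective library size, and per kilobase of CDS where genes are compared with each other. Together the 36 genes took 1.46% of all CDS reads in LiCl-treated wild type in polyadenylated libraries, against 6.60% in myriocin, 4.69% in fenpropimorph, 7.55% in NaCl and 3.64% in glucose. In ribo-depleted libraries the shares were 0.235% in LiCl, against 1.80% in myriocin, 1.61% in fenpropimorph, 3.43% in NaCl and 0.803% in glucose. The order of the conditions was the same in both library types, with NaCl highest and LiCl lowest among the wild-type cultures. The Wilson intervals of counting error were narrower than the difference between any of these neighbouring shares. In ribo-depleted libraries the share depended strongly on the denominator, since without Ty element CDS and CDS under the filter it was 0.544% in LiCl, against 3.70% in myriocin.

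The median level of the intronless RP genes was 331.7 CPM in LiCl-treated wild type, against 2000.1 CPM in myriocin, 1166 CPM in fenpropimorph, 2286 CPM in NaCl and 886.6 CPM in glucose (polyadenylated libraries). The ribo-depleted medians were 62.6 CPM in LiCl, against 461 CPM in myriocin, 358 CPM in fenpropimorph, 725 CPM in NaCl and 191 CPM in glucose. Per kilobase, the intronless RP genes had a median of 648 CPM in LiCl-treated wild type, above the 532 CPM of the RP genes with an intron and the 46.6 CPM of all CDS (polyadenylated libraries). Among the 36, the tiny large-subunit protein gene *RPL41A* was the highest per kilobase in polyadenylated LiCl-treated wild type, at 4130 CPM, and *RPL15B* the lowest, at 102 CPM. The plot of the level of each gene by library shows that the median of the group was lower in each of the 4 LiCl samples than in each of the other cultures.

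**Figure D1:**
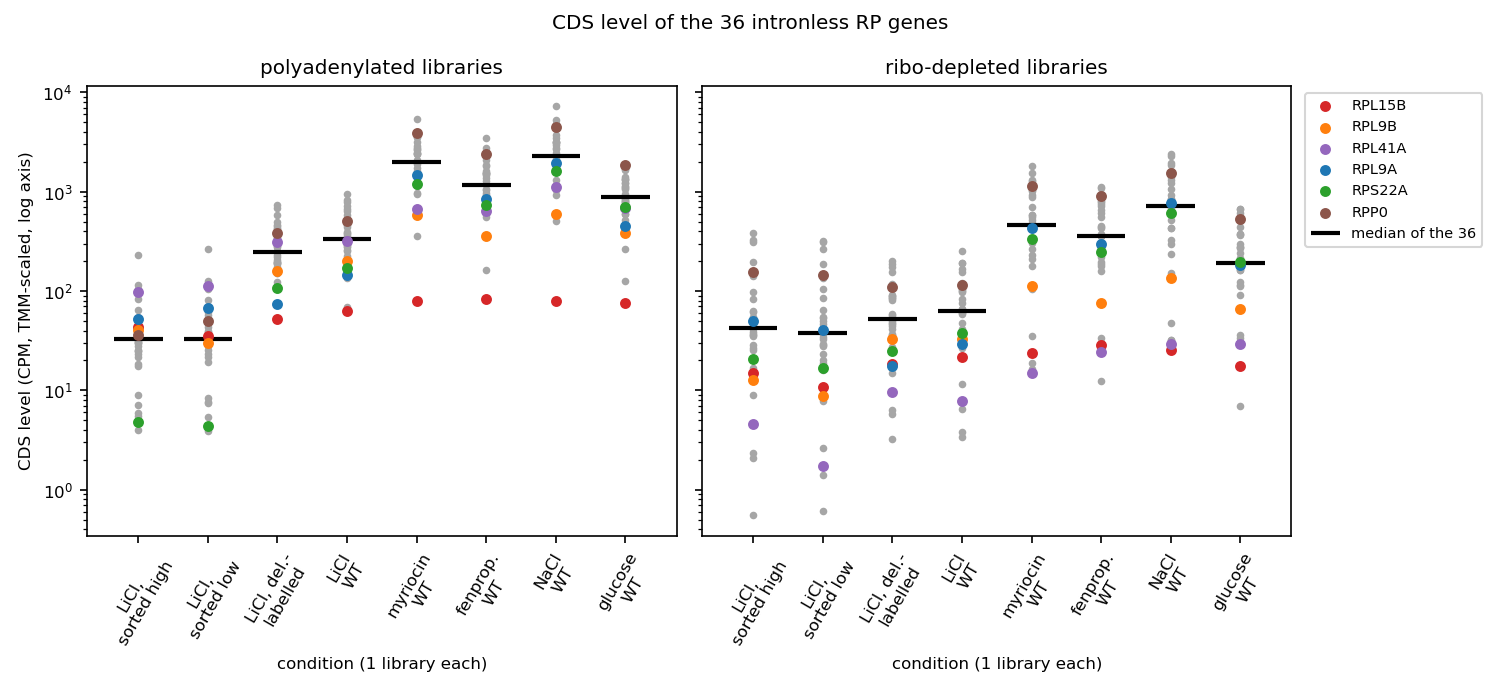
CDS level (CPM on a log axis) of the 36 intronless RP genes in each of the 8 conditions, 1 library each, for polyadenylated (left) and ribo-depleted (right) libraries; points are genes, 6 of them coloured, and black bars are the median of the 36. The median lies at 331.7 CPM in polyadenylated LiCl-treated wild type, against 2000.1 CPM in myriocin, and *RPL15B* stays between 62.8 and 83.9 CPM in the wild-type cultures.

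To ask whether LiCl affects the intronless RP genes apart from growth inhibition as such, LiCl-treated wild type was compared with the 2 drugs at similar inhibition. The genes were lower in LiCl by a median of 5.65-fold against myriocin in polyadenylated and 7.31-fold in ribo-depleted libraries, and by 3.38-fold and 5.75-fold against fenpropimorph. All 36 were lower than in either drug in both library types. Of all CDS tested, 3377 of 6640 (polyadenylated) and 3168 of 6616 (ribo-depleted) were lower against myriocin, and 3211 and 3231 against fenpropimorph. At least 2-fold lower against myriocin were 35 of 36 in polyadenylated libraries, where 14.6% of the 6640 CDS tested were, and 34 of 36 in ribo-depleted libraries, where 15.1% of 6616 were. Against fenpropimorph 32 of 36 (polyadenylated, background 11.9%) and 35 of 36 (ribo-depleted, background 13.6%) were at least 2-fold lower. At least 2-fold higher in LiCl were 0 of 36 in these comparisons, with a background of 15% and 15.5% against myriocin and 13.2% and 12.7% against fenpropimorph. In bulk RNA, a lower level in every cell and a smaller share of cells with high levels cannot be told apart.

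The RP genes with an intron were lower in LiCl to a similar degree. The median log2 change against myriocin was −2.50 for the intronless and −2.39 for the intron-containing RP genes in polyadenylated libraries, and −2.87 and −2.78 in ribo-depleted libraries. Against fenpropimorph the medians were −1.76 and −1.73 (polyadenylated) and −2.52 and −2.35 (ribo-depleted). The difference of the medians, intronless minus intron-containing, was between −0.17 and −0.03 over these comparisons. In the plot of changes by comparison both RP groups lie far below all CDS, whose medians were between −0.01 and 0.04.

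**Figure D2:**
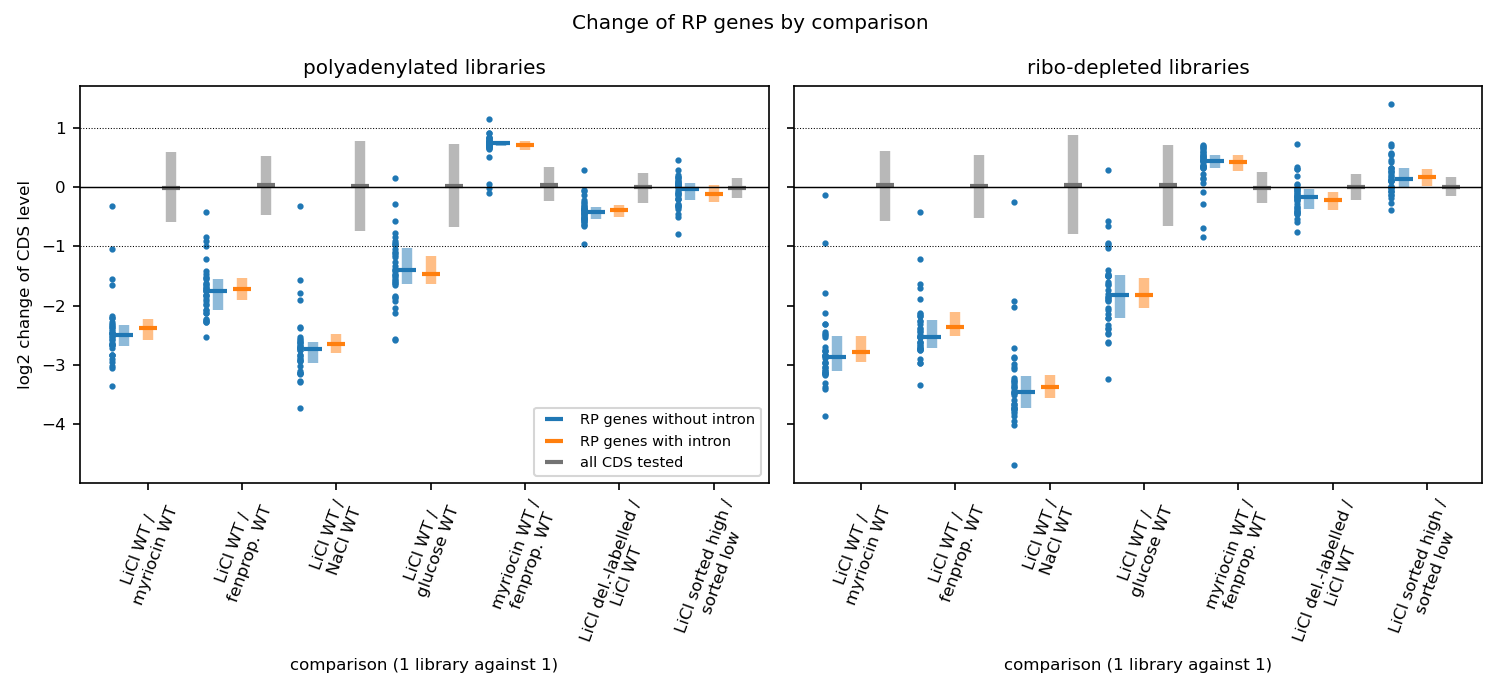
log2 change of the CDS level in 7 comparisons (first-named condition over the second, 1 library each) for polyadenylated (left) and ribo-depleted (right) libraries; small points are the 36 intronless RP genes, horizontal bars are medians and shaded bars the quartiles of RP genes without intron, RP genes with intron and all CDS tested, and dotted lines mark a 2-fold change. Both RP groups are lower in LiCl against all 4 other wild-type cultures, by a median of −2.50 (without intron) and −2.39 (with intron) against myriocin in polyadenylated libraries.

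By role, the median log2 change against myriocin was −2.38 for the 20 large-subunit, −2.65 for the 4 stalk and −2.58 for the 12 small-subunit genes in polyadenylated libraries, and −2.87, −2.99 and −2.94 in ribo-depleted libraries. All 12 small-subunit and all 4 stalk genes were at least 2-fold lower in LiCl against each drug in each library type. The genes under 2-fold lower were thus all of the large subunit, which also had the widest range of changes.

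Genes were ranked by their mean log2 change over both library types, here and in the comparisons that follow. The gene with the lowest LiCl level relative to both drugs was *RPL9A* (YGL147C, chrVII:227754-228329, minus strand), which encodes a large-subunit protein near the base of the stalk. It had 145 CPM in LiCl-treated wild type, against 1481 CPM in myriocin and 836 CPM in fenpropimorph (polyadenylated), and 29.6 CPM against 429 and 298 CPM (ribo-depleted). The log2 changes were −3.35 (−3.39 to −3.32) and −2.53 (−2.57 to −2.49) in polyadenylated and −3.86 (−3.94 to −3.78) and −3.33 (−3.41 to −3.25) in ribo-depleted libraries, against myriocin and fenpropimorph in that order. *RPL9A* was therefore lower than the median intronless RP gene in all 4 values. Its paralogue *RPL9B*, also without an intron, was among the 3 least lowered. *RPL9B* had 199 CPM in LiCl, against 585 CPM in myriocin and 354.5 CPM in fenpropimorph (polyadenylated), and 32.9 CPM against 113 and 76.3 CPM (ribo-depleted).

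*RPP0* was the second lowest, with 506.5 CPM in LiCl, against 3919 CPM in myriocin and 2418 CPM in fenpropimorph (polyadenylated), and 115 CPM against 1141 and 899 CPM (ribo-depleted). The third was *RPL15A*, another large-subunit protein gene, with 381 CPM in LiCl, against 3171 and 1844 CPM (polyadenylated), and 99.25 CPM, against 1029.7 and 649.5 CPM (ribo-depleted), in myriocin and fenpropimorph. At the other end stood its paralogue *RPL15B* (YMR121C, chrXIII:509734-510348, minus strand), with 62.8 CPM in LiCl, against 78.6 CPM in myriocin and 83.9 CPM in fenpropimorph (polyadenylated), and 21.5 CPM against 23.6 and 28.8 CPM (ribo-depleted). Its log2 change was −0.32 (−0.39 to −0.25) against myriocin in polyadenylated libraries and became 0.01 with CPM on total counts, a setting that moved the median of all CDS tested by 0.34 in this comparison, so *RPL15B* was below that median under both settings. *RPL41A* was the second least lowered, with 322 CPM in LiCl, against 665 CPM in myriocin and 640.0 CPM in fenpropimorph (polyadenylated), and 7.80 CPM, against 14.97 and 24.2 CPM (ribo-depleted). The heat map of all 36 genes shows the levels between these ends, where *RPL8A* and *RPL41B* depart from the others in glucose.

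**Figure D3:**
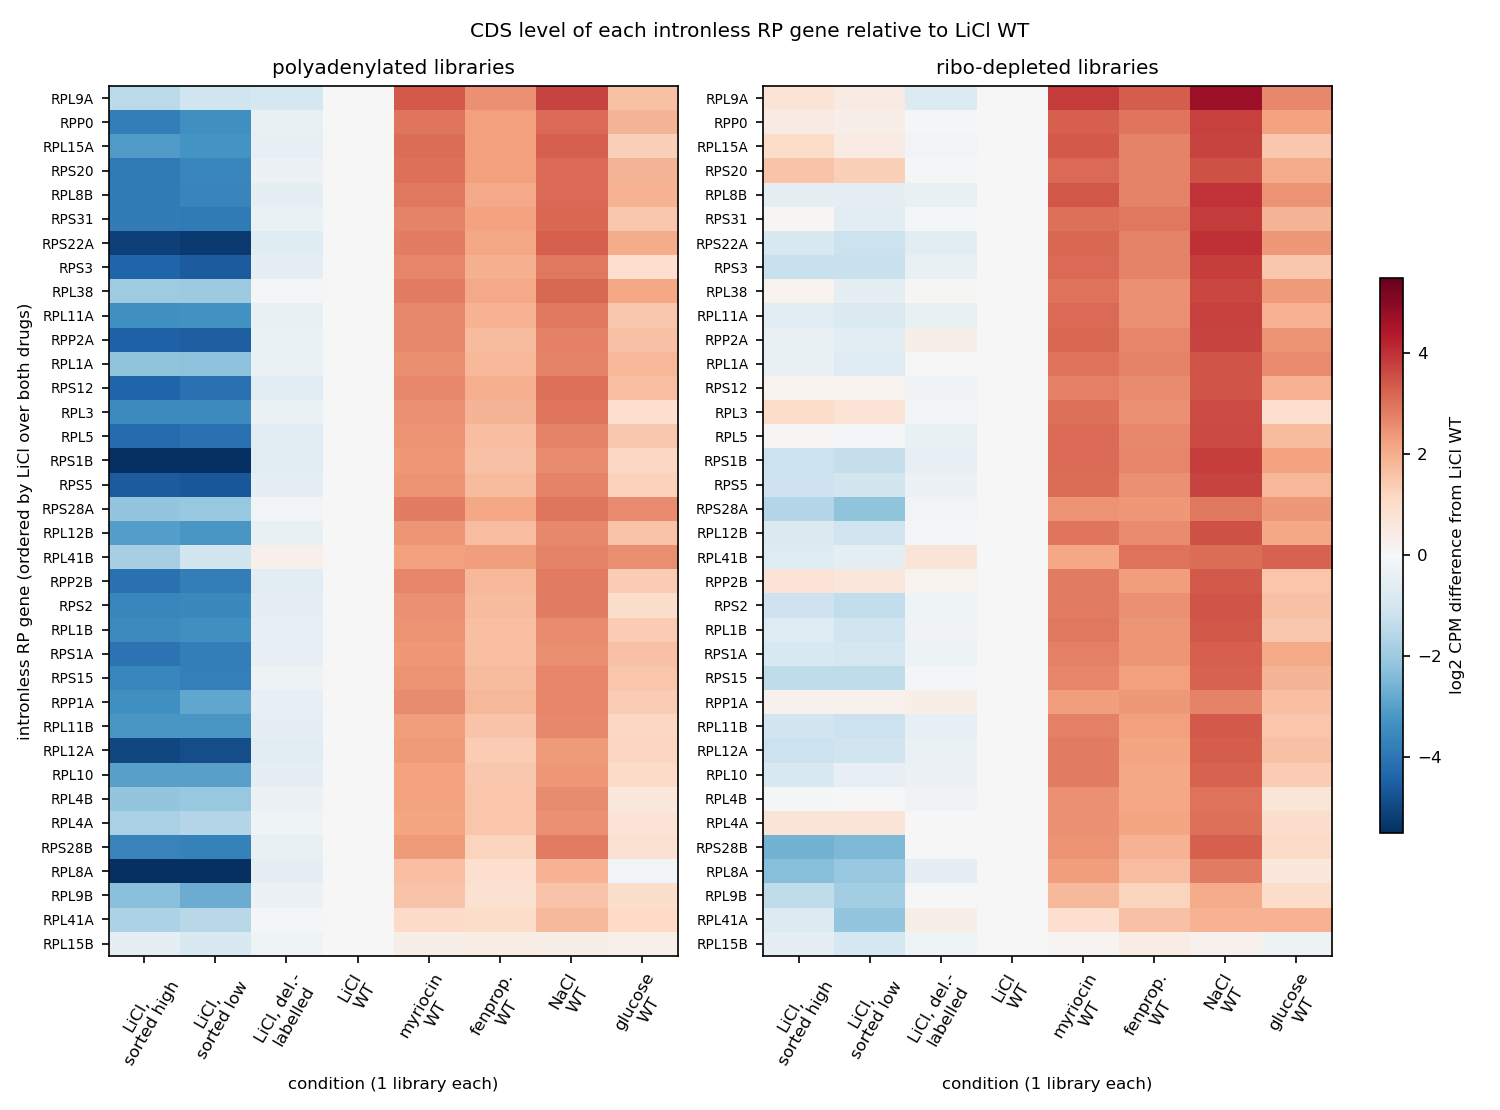
Level of each intronless RP gene (rows, ordered by the mean log2 change of LiCl over both drugs, lowest at the top) in each of the 8 conditions (columns, 1 library each) as the log2 CPM difference from LiCl-treated wild type, for polyadenylated (left) and ribo-depleted (right) libraries. *RPL9A* (mean −3.27) and *RPL15B* (mean −0.32) are the ends of the order, and in both sorted samples all 36 genes lie below LiCl-treated wild type on the left, whereas on the right 23 lie below and 9 above it in both. The matching shares of all CDS were not computed.

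The stalk genes were each followed over all samples. *RPP1A* had 255 CPM in LiCl-treated wild type, against 1521 CPM in myriocin, 907 CPM in fenpropimorph, 1638 CPM in NaCl and 678.5 CPM in glucose (polyadenylated), and 35.8 CPM against 178, 188, 236 and 113 CPM (ribo-depleted). *RPP2A* had 194 CPM in LiCl, against 1205, 645, 1309.8 and 599 CPM in the same order (polyadenylated), and 11.7 CPM against 104, 74.4, 152 and 64.4 CPM (ribo-depleted). *RPP2B* had 299.9 CPM in LiCl, against 1902, 1063, 2144 and 792 CPM (polyadenylated), and 32.2 CPM against 229.8, 159, 329 and 91.4 CPM (ribo-depleted). *RPP1B*, the paralogue of *RPP1A* that has an intron, had 169 CPM in LiCl, against 1181, 698, 1344 and 661 CPM (polyadenylated). In every case the LiCl value was the lowest of the wild-type cultures.

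The 4 intronless stalk genes share the end of their coding sequence, which is where the proteins carry the acidic tail that contacts translation factors. The last 30 bases of each CDS are shown (R64, 5′ to 3′ on the coding strand, stop codon in capitals), because this tail is common to the family, and 23 of the 27 coding bases shown are identical in all 4.
RPP0, chrXII:806796-806825, plus strand: gacgacatgggtttcggtttattcgatTAA
RPP1A, chrIV:309802-309831, minus strand: gacgacatgggtttcggtttatttgatTAG
RPP2A, chrXV:254588-254617, plus strand: gacgacatgggtttcggtttattcgacTAA
RPP2B, chrIV:1239795-1239824, plus strand: gatgacatgggttttggtttattcgatTAA
Over the whole CDS *RPP2A* and *RPP2B* were 73.6% identical, so that reads of these genes could be told apart by sequence.

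Salt stress without lithium was the next comparison. Against 0.4 M NaCl the intronless RP genes were lower in LiCl by a median of 6.65-fold (polyadenylated) and 10.9-fold (ribo-depleted), which were the largest medians for this group among the 7 comparisons made here. At least 2-fold lower were 35 of 36 in each library type, with a background of 18.3% (polyadenylated) and 20.5% (ribo-depleted), and *RPL15B* was the exception in both, while 0 of 36 were at least 2-fold higher, with a background of 21.1% and 22.6%. By the mean of both library types the lowest were *RPL9A*, with 145 CPM in LiCl, against 1922 CPM in NaCl (polyadenylated), and 29.6 CPM against 763 CPM (ribo-depleted), and the small-subunit gene *RPS22A*, with 169 CPM against 1633 CPM and 37.5 CPM against 609.5 CPM. By the same mean the least lowered after *RPL15B* was *RPL9B*, with log2 changes of −1.58 (−1.61 to −1.54) and −2.03 (−2.11 to −1.95), although in ribo-depleted libraries *RPL41A* was at −1.92 (−2.09 to −1.75). The intron-containing RP genes had medians of −2.65 and −3.37, close to the −2.73 and −3.45 of the intronless ones.

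Against 20% glucose the difference was smaller, with a median of 2.65-fold (polyadenylated) and 3.55-fold (ribo-depleted) lower in LiCl. For total RNA, the paper describes its 20% glucose culture as late exponential and its LiCl culture as mid-exponential. Growth phase and treatment therefore cannot be told apart in this comparison. At least 2-fold lower were 27 of 36 (background 16.2%) and 30 of 36 (background 16.9%), and 0 of 36 were at least 2-fold higher (background 19.2% and 18.3%). The group was also more spread here. By the mean of both types *RPL41B* was lowest, with 141.5 CPM in LiCl, against 833 CPM in glucose (polyadenylated), and 3.79 CPM against 35.7 CPM (ribo-depleted), followed by *RPS28A*, a small-subunit protein gene, with 136 CPM against 813 CPM and 6.43 CPM against 33.8 CPM. In polyadenylated libraries alone their log2 changes were −2.56 and −2.58, which do not differ beyond counting error. *RPL8A* had 296 CPM in LiCl, against 266 CPM in glucose (polyadenylated), but 83.9 CPM against 124 CPM in ribo-depleted libraries. *RPL15B* had 62.8 CPM against 76.4 CPM and 21.5 CPM against 17.7 CPM. These 2 genes were the only intronless RP genes whose change had opposite signs in the library types beyond counting error in this comparison. The share of all CDS with such opposite signs was not computed. Medians of the intron-containing RP genes were −1.47 and −1.83, against −1.41 and −1.83 for the intronless ones. All 4 comparisons share the LiCl-treated wild-type libraries and are therefore not independent of each other.

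The 2 drugs were also set against each other. Intronless RP genes were higher in myriocin than in fenpropimorph by a median log2 change of 0.74 (polyadenylated) and 0.44 (ribo-depleted), as were those with an intron (0.71 and 0.42). With CPM on total counts the intronless medians were 0.52 and 0.14, a setting that moved the median of all CDS by −0.22 and −0.30. Only *RPS28B* reached 2-fold, in polyadenylated libraries (358 CPM in myriocin, against 162 CPM in fenpropimorph), that is 1 of 36, with a background of 4.16% at least 2-fold higher. In ribo-depleted libraries *RPS28B* had 18.7 CPM against 12.4 CPM and 0 of 36 reached 2-fold, with a background of 2.69%. At least 2-fold lower in myriocin were 0 of 36 in either type, with a background of 4.34% and 4.40%. *RPL12A*, a stalk-base protein gene, was next, with 1133 CPM against 601 CPM and 433 CPM against 271 CPM. The lowest were the *RPL41* genes. *RPL41A* had 665 CPM in myriocin against 640.0 CPM in fenpropimorph (polyadenylated), but 14.97 CPM against 24.2 CPM (ribo-depleted), and *RPL41B* had 684 CPM against 689 CPM and 16.6 CPM against 29.9 CPM.

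The culture labelled as having the *RPS22B* 5′ UTR intron deleted was compared in LiCl with wild type. Its libraries held more reads in that intron than those of wild type, as given above, but fewer relative to the reads on the *RPS22B* CDS. Reads in that intron would not be foreseen from the label, and their source was not tested. The median log2 change was −0.43 (polyadenylated) and −0.17 (ribo-depleted), against −0.39 and −0.23 for RP genes with an intron and −0.01 and 0.01 for all CDS. Lower were 35 of 36 genes in polyadenylated and 29 of 36 in ribo-depleted libraries, beside 3389 of 6640 and 3269 of 6616 CDS tested. However, 0 of 36 reached 2-fold in either direction. The background at least 2-fold lower was 2.15% in polyadenylated and 1.87% in ribo-depleted libraries, and at least 2-fold higher 1.9% and 1.57%. *RPL9A* was lowest, with 74.7 CPM in the deletion-labelled culture against 145 CPM in wild type (polyadenylated), and 17.5 CPM against 29.6 CPM (ribo-depleted). *RPS22A*, the paralogue of the gene named in that label, came next, with 108 CPM against 169 CPM and 24.85 CPM against 37.5 CPM, log2 changes of −0.65 (−0.71 to −0.60) and −0.59 (−0.71 to −0.48). The highest were *RPL41B*, with 173 CPM against 141.5 CPM and 6.28 CPM against 3.79 CPM, and *RPL41A*, with 311 CPM against 322 CPM and 9.66 CPM against 7.80 CPM. The stalk genes *RPP1A*, *RPP2A* and *RPP2B* were lower in polyadenylated libraries (log2 change −0.45, −0.35 and −0.64) and higher in ribo-depleted libraries (0.31, 0.34 and 0.19). *RPP0* had log2 changes of −0.40 and −0.08.

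Within LiCl, cells sorted for high Rps22B–GFP were compared with cells sorted for low Rps22B–GFP. The median log2 change of the intronless RP genes was −0.03 (polyadenylated) and 0.13 (ribo-depleted), the ribo-depleted value becoming −0.02 with CPM on total counts, where the median of all CDS moved by −0.15, and RP genes with an intron had −0.12 and 0.17. In polyadenylated libraries 0 of 36 reached 2-fold, with a background of 0.12% higher and 0.678% lower, and in ribo-depleted libraries 1 of 36, *RPL41A*, was at least 2-fold higher, with a background of 0.333% higher and 0.378% lower. Its log2 change was 1.40 (1.04 to 1.76) and rests on 216 reads in high and 86 reads in low cells, or 4.58 and 1.73 CPM, and in polyadenylated libraries it had 97.3 CPM in high and 112 CPM in low cells. *RPL9B* was higher in both types, with 40.8 CPM in high and 29.8 CPM in low cells (polyadenylated) and 12.65 CPM in high and 8.75 CPM in low cells (ribo-depleted). *RPL41B* was lowest by the mean of both types, with 40.1 CPM in high and 69.9 CPM in low cells (polyadenylated) and 2.31 against 2.64 CPM (ribo-depleted), followed by *RPP1A*, with 24.7 against 35.1 CPM and 42.3 against 42.1 CPM. Of the 36, 9 had opposite signs in the 2 library types beyond counting error, among them *RPP0*, with 36.1 CPM in high and 49.55 CPM in low cells (polyadenylated) and 157 against 146 CPM (ribo-depleted). The share of all CDS with such opposite signs was not computed, so this count does not describe a trait of the group.

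In the sorted cells the level of the whole group was far lower than in the unsorted LiCl culture in polyadenylated libraries, with a median of 32.6 CPM in high and 33.1 CPM in low cells, beside 331.7 CPM in LiCl-treated wild type. In ribo-depleted libraries the medians were 41.9 and 37.7 CPM, beside 62.6 CPM. The share of all CDS reads on the group went the other way there, at 0.313% in high and 0.316% in low cells, beside 0.235%. Without Ty element CDS and CDS under the filter these shares were 0.596% and 0.541%, beside 0.544%. Strain, exposure and sorting all differ between these samples and cannot be told apart.

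Pairs of paralogues showed which copy supplied the transcripts. In 11 pairs both copies lack an intron, and in these the share of the first copy could move while the family as a whole was lower in LiCl. In polyadenylated libraries *RPL15A* made up 85.9% of the reads of its pair in LiCl-treated wild type, against 97.6% in myriocin, 95.7% in fenpropimorph, 97.9% in NaCl and 92.6% in glucose, and ribo-depleted libraries gave 82.2% against 97.8%, 95.8%, 98.1% and 94.0%. *RPL9A* made up 42.2% of its pair in LiCl, against 71.7% in myriocin, 70.2% in fenpropimorph, 76.45% in NaCl and 53.5% in glucose (polyadenylated), and 47.35% against 79.1%, 79.6%, 85.0% and 73.6% (ribo-depleted). In both pairs the copy that held the larger part in the other wild-type cultures held a smaller share in LiCl-treated wild type, and for *RPL9* the other copy held the larger part there. The sorted LiCl samples differed from this, with *RPL9A* at 56.3% in high and 69.6% in low cells (polyadenylated) and 79.9% and 82.1% (ribo-depleted). *RPL15A* held 50.2% in high and 52.2% in low cells (polyadenylated), but 93.0% and 92.5% (ribo-depleted). In the deletion-labelled culture *RPL9A* held 31.9% and 34.9%, and *RPL15A* 84.3% and 82.9%, in polyadenylated and ribo-depleted libraries.

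*RPL8A* moved the other way, with 45.5% in LiCl-treated wild type, against 26.1% in myriocin, 27.3% in fenpropimorph, 26.3% in NaCl and 16.5% in glucose (polyadenylated), and 41.2% against 24.8%, 25.8%, 24.8% and 15.7% (ribo-depleted). In the sorted LiCl samples it held 13.9% in high and 12.02% in low cells (polyadenylated) and 16.8% and 18.9% (ribo-depleted). *RPL8B* overlaps an opposite-strand reading frame, as given below, which bears on its counts. *RPL41A* held 69.5% in LiCl, against 49.3%, 48.15%, 54.5% and 45.4% in the same order (polyadenylated). *RPS28A* held 66.1% in LiCl, against 73.0%, 78.5%, 67.1% and 86.6% (polyadenylated), and 65.7% against 65.3%, 72.9%, 59.6% and 83.1% (ribo-depleted), so that LiCl was lowest in the polyadenylated but not in the ribo-depleted libraries. Over the 5 wild-type cultures the other 6 pairs of intronless copies had ranges between 4.07 and 8.74 percentage points in polyadenylated libraries. *RPL1A*, for example, was at 40.2% in LiCl, against 41.9% in myriocin, 43.4% in fenpropimorph, 42.0% in NaCl and 47.8% in glucose, although in ribo-depleted libraries it had 39.3% in LiCl, against 58.7% in glucose. *RPP2A* likewise had 26.7% in LiCl, against 41.3% in glucose, in ribo-depleted libraries.

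**Figure D4:**
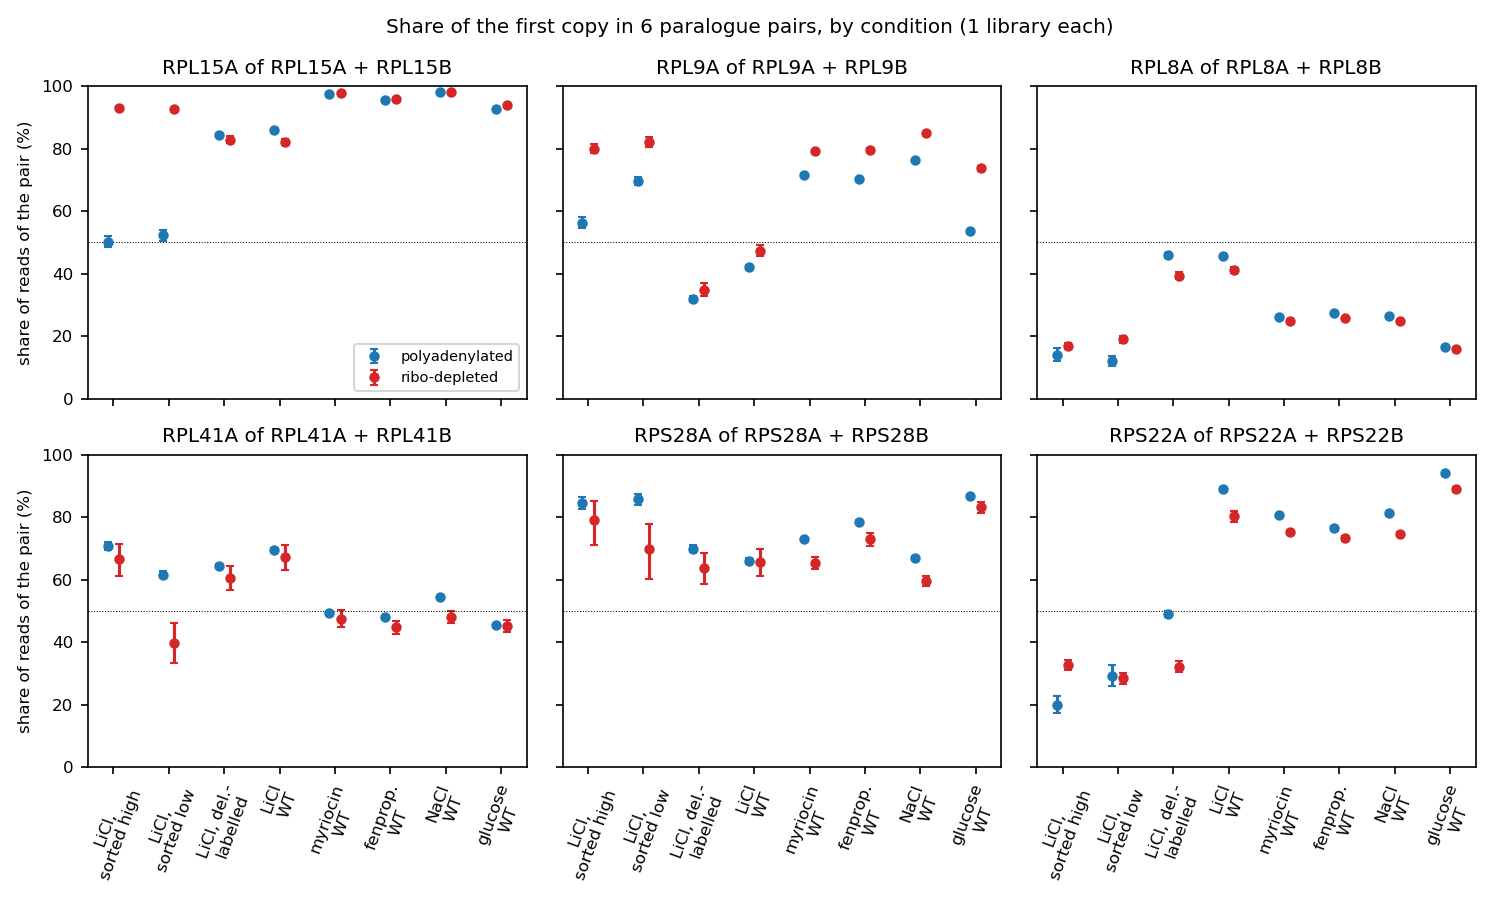
Share of the first-named copy in the reads of 6 paralogue pairs (percent, 0 to 100) in each of the 8 conditions, 1 library each, for polyadenylated (blue) and ribo-depleted (red) libraries, with Wilson 95% intervals of counting error; *RPS22B* has introns and all other genes shown have none. *RPL9A* holds 42.2% in polyadenylated LiCl-treated wild type, against 71.7% in myriocin, and *RPS22A* 88.9%, against 49.1% in the deletion-labelled culture.

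*RPS22A* (YJL190C, chrX:74910-75302, minus strand) is the intronless copy of the pair to which *RPS22B* belongs, and both encode the same small-subunit protein family. *RPS22A* made up 19.8% of the reads of the pair in high and 29.1% in low sorted cells, 49.1% in the deletion-labelled culture and 88.9% in LiCl-treated wild type (polyadenylated), and 32.7%, 28.4%, 32.2% and 80.2% in ribo-depleted libraries. The other wild-type cultures lay between 76.6% and 94.1% (polyadenylated). *RPS22A* thus held the larger part in every wild-type culture and the smaller part in the libraries of the *RPS22B*-GFP strains, except that its 49.1% in the polyadenylated deletion-labelled library has an interval of 48.0% to 50.1%. The level of *RPS22A* itself was 4.80 CPM in high and 4.41 CPM in low cells, 108 CPM in the deletion-labelled culture and 169 CPM in LiCl-treated wild type (polyadenylated). *RPS22B* had 19.5, 10.7, 112 and 21.2 CPM in these samples. The 2 CDS are 89.6% identical and share no window of 100 bases. In the *RPP1* pair *RPP1A* held 60.2% in LiCl, against 56.3% in myriocin, 56.5% in fenpropimorph, 54.9% in NaCl and 50.7% in glucose (polyadenylated).

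How well copies can be told apart differs between pairs. The *RPL1* copies were 99.4% identical over their CDS, the *RPL4* copies 98.9% and the *RPL41* copies 98.7%, whereas the *RPL9* copies were 93.75% and the *RPL15* copies 93.2% identical. Of the 36 genes, 16 share at least 1 window of 100 bases with another CDS of the table, and the *RPL41* genes, at 78 bp, are shorter than such a window. Shares for *RPL1*, *RPL4*, *RPL11* and *RPL41* are therefore uncertain. In addition, *RPL8B*, *RPL10*, *RPL12A*, *RPL12B*, *RPP0* and *RPS2* overlap a reading frame annotated on the opposite strand, and each of these reading frames held between 49.1% and 90.2% as many reads as the RP gene. YGL123C-A, for example, lies with all of its 231 bp inside *RPS2* and held 50.4% (polyadenylated) and 55.4% (ribo-depleted) as many reads. The library kit marks strand, but the sources used here do not say whether strand was used in counting. How reads were assigned to these genes and their antisense partners, to one or to both, was not tested. With the 16 genes left out, all 20 others were at least 2-fold lower in LiCl against myriocin in polyadenylated libraries. This count followed from that of the full set, since *RPL15B*, the only exception among the 36, was among the genes left out. The *RPL41* genes stayed among the 20 only because they are too short for a window.

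Each RNA sample gave both library types, so the level of a transcript in the polyadenylated over the ribo-depleted library could be compared among genes. The 2 library types were scaled separately, so a ratio of 1 is not a neutral line. In the 6 unsorted samples the 36 intronless RP genes had a median log2 ratio between 1.70 and 2.32. This was above the medians of 1.04 to 1.09 for all genes in these samples. In the sorted samples the median of the intronless RP genes was −0.43 in high and −0.26 in low cells, while the median of all genes stayed at 1.08. RP genes with an intron had medians of 0.01 and 0.29 in the sorted samples. The lowest ratio was that of *RPS20*, with a log2 ratio of −3.80 in high and −3.23 in low cells, beside 1.67 in LiCl-treated wild type. *RPS1B* likewise had −3.10 in high and −2.65 in low cells, beside 2.13 in LiCl-treated wild type. *RPL15B* differed little, with 1.53 in high cells, 1.70 in low cells and 1.54 in LiCl-treated wild type.

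The shortest genes had the highest ratios. *RPL41A* reached 5.37 and *RPL41B* 5.22 in LiCl-treated wild type, followed by *RPS28A* with 4.40 and *RPS28B* with 4.37. Across the 36 genes the Pearson correlation of the log2 ratio with log2 CDS length was between −0.78 and −0.62 in the 8 samples, a description over genes that share libraries. By rank the correlation was weaker, with a Spearman rho between −0.53 and −0.38. Over all genes rho was between −0.46 and −0.36, so by rank the trend with length was not particular to this group. The Pearson correlation over all genes was between −0.37 and −0.28, weaker than over the 36 genes. Over the 5 intronless RP genes of at most 250 bp the median was 4.40 in LiCl-treated wild type, beside 1.30 for all 328 genes of that length. The shortest genes had few ribo-depleted reads, down to 26 for *RPS28B* in high cells, so their ribo-depleted changes are the least precise.

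**Figure D5:**
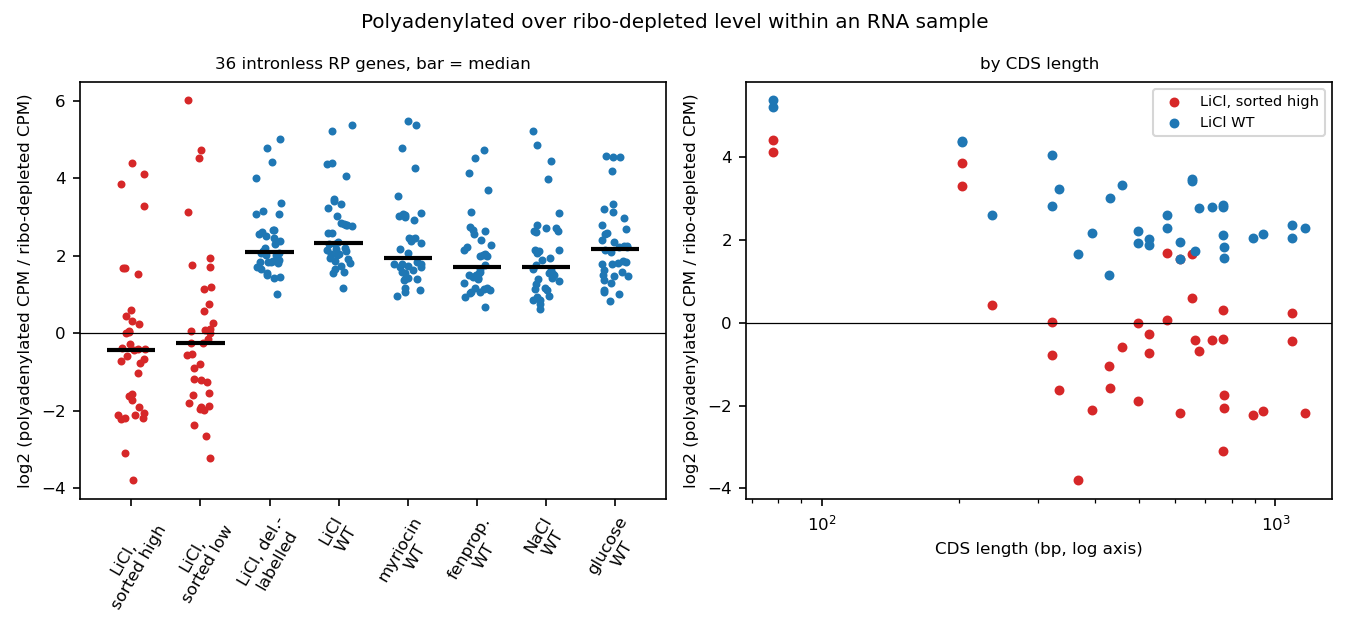
log2 ratio of the polyadenylated to the ribo-depleted CPM of the 36 intronless RP genes, by sample (left, bars are medians, red points are sorted cells) and by CDS length on a log axis for high sorted cells and LiCl-treated wild type (right). The medians are −0.43 in high and −0.26 in low cells and between 1.70 and 2.32 in the 6 other samples.

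Over the 8 libraries of a type, most intronless RP genes followed the median profile of the group closely. The profile is the median of these same genes, so a close match is in part built in. The mean Pearson r over both library types was lowest for *RPL15B* (0.88), *RPL41A* (0.91) and *RPS20* (0.93) and highest for *RPL11A* (0.999), whose product binds 5S ribosomal RNA with that of *RPL5*. Outside the group, the 3 genes most like the median profile were *RPL40B*, *RPL2B* and *RPL34A*, all RP genes with an intron, with a mean r of 0.998, 0.998 and 0.997 over 8 libraries of each type. The highest among genes that are not RP genes was YGL123C-A, followed by YLR076C, reading frames that overlap *RPS2* and *RPL10* on the opposite strand. Overlap was examined only for the intronless RP genes, and some of the genes that came next, such as *MIN10*, overlapped none of these.

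Genes that serve RPs were compared in the same way. The 11 dedicated RP chaperone and escort genes, such as *RRB1* for Rpl3, *ACL4* for Rpl4, *SQT1* for Rpl10 and *SYO1* for Rpl5 and Rpl11, had a median log2 change of −1.16 (polyadenylated) and −1.33 (ribo-depleted) in LiCl against myriocin, and 9 and 11 of them were at least 2-fold lower, with a background of 14.6% and 15.1%. *RRB1*, for example, had 188 CPM in LiCl, against 457 CPM in myriocin and 188 CPM in fenpropimorph (polyadenylated). Against fenpropimorph the medians were only −0.22 and −0.66, and 0 and 1 of 11 were at least 2-fold lower, with a background of 11.9% and 13.6%, beside 32 and 35 of the 36 intronless RP genes. Against NaCl all 11 were at least 2-fold lower in both types, with a background of 18.3% and 20.5%.

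Of the 7 transcriptional regulators of RP genes, 0 were at least 2-fold lower in LiCl against any of the 4 wild-type cultures, with a background between 11.9% and 20.5%, so that for a list of this size the count lies near the background. *ABF1*, 1 of the 7, was at least 2-fold higher against fenpropimorph in polyadenylated libraries (background 13.2%), with a log2 change of 1.13. In ribo-depleted libraries its change was 0.45, and against NaCl it was lower, at −0.39 (polyadenylated) and −0.71 (ribo-depleted). *CRF1*, a corepressor of RP genes, was at least 2-fold higher against myriocin, NaCl and glucose, with a background between 15% and 22.6%. It had 67.0 CPM in LiCl against 22.5 CPM in myriocin (polyadenylated) and 32.7 CPM against 10.1 CPM (ribo-depleted). These counts of 1 of 7 also lie near the background. Mitochondrial RP genes, 67 in number, did not share the pattern of the cytosolic ones, with medians between −0.02 and 0.34 in LiCl against the 4 other cultures and 0 at least 2-fold lower.

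Letters of the binding sites of general RP promoter factors were searched on both strands in the 500 bases before the start codon. The letters of a strict Rap1 site were present upstream of 1 of 36 intronless RP genes (2.78%), 12 of 101 RP genes with an intron (11.9%) and 43 of 6692 CDS (0.643%). A looser form of the Rap1 site, which includes every match of the strict one and was chosen after that count had been seen, were present in 8 of 36 (22.2%), 52 of 101 (51.5%) and 405 of 6692 (6.05%) windows. The letters of the Abf1 site were found in 8 of 36 (22.2%), 16 of 101 (15.8%) and 1489 of 6692 (22.3%) windows, and the Reb1 letters TTACCCG in 5 of 36 (13.9%), 2 of 101 (1.98%) and 629 of 6692 (9.40%). A match is a description of letters, not of binding.

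The 8 Rap1-like matches are shown as 30 bases of the R64 reference around each, written 5′ to 3′ on the strand of the gene with the matching letters in capitals, since all 8 had the same orientation relative to the gene and began between 240 and 397 bases before the start codon, with a median of 283.5.
RPL5, chrXVI:302820-302849, plus strand: ctaacttgtaCATCCAGACAtcctaaaaca
RPL8A, chrVIII:36246-36275, minus strand: atgaagaaaaCACCCAAACAtatctaggcc
RPL11B, chrVII:649141-649170, minus strand: acattttaaaCATCCGTACAacgagaaccc
RPL41A, chrIV:130741-130770, minus strand: catatacaaaCATCCGCACAttttatagct
RPL41B, chrIV:222127-222156, minus strand: acggttaccaCACCCGTACAcccttatctc
RPP0, chrXII:805614-805643, plus strand: gcctgcttaaCATCCGAACAtttcacattt
RPS1B, chrXIII:146075-146104, plus strand: catttttgtaCATCCATACAccatacacca
RPS12, chrXV:1028899-1028928, minus strand: taccattgtgCATCCGTACAtttgatttgt
The genes with this loosest form included both *RPP0* and *RPL41A*, which stood near opposite ends of the order in LiCl over both drugs, and neither *RPL9A* nor *RPL15B* had it.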

How the data were processed

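RNA of 8 yeast samples was sequenced as 16 libraries. Per the labels and the Methods, the authors trimmed paired reads with cutadapt, aligned them to R64 with HISAT2 and deposited raw read counts per CDS made with featureCounts, for 6697 CDS. The study lists HISAT2 2.1.0 and featureCounts 1.6.0 and 1.6.2 without saying which runs used them, and no cutadapt version is given in the sources used here. Deposited feature lengths in bp, another kind of value, were used only for levels per kilobase. Members, gene lists and tests were chosen with earlier results of these data known.

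Symbols came from the reference gene table (6014 of 6697 identifiers). Intronless RP genes were those in neither intron table. Counts of a library type were scaled with edgeR TMM (edgeR 4.0.16, R 4.3.3) over its 8 libraries. CDS with a mean of at least 10 reads were kept (6640 polyadenylated, 6616 ribo-depleted), and log2 changes used a pseudocount of 0.5 reads. With 1 library per condition no model across genes could be fitted, and at least 2-fold served as the limit for counting genes. Intervals are 95% intervals (counting standard error for log2 changes, Wilson for shares) and cover counting error only, not PCR duplicates. Total CDS reads per library were between 29557254 and 53234402.

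Per-library values are given for *RPS22A*, the stalk genes, the 3 lowest and 3 highest genes in LiCl over both drugs, the 2 lowest and 2 highest in each other comparison, and the 3 non-member genes most like the median profile. Others were chosen after their values were seen. Motifs were searched in 500 bases before each start codon, a window chosen in place of a promoter table. Alternatives were DESeq2 size factors (DESeq2 1.42.0), scaling to total counts, TMM computed without the RP genes, 1 read as pseudocount, the unfiltered table, a filter at 50 reads, summed paralogues, and genes with a shared window of 100 bases left out. TMM over the wild-type libraries and the looser Rap1 letters were added after the data had been seen. The calculations were tested on simulated data. Python 3.11.15 with numpy 2.4.6, pandas 2.3.3 and matplotlib 3.10.9 was used.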

Additional observations from a re-analysis of the deposited data

How the results depend on the processing

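No paired analysis was possible because each condition has 1 library per type and the labels give no replicate numbers, and no library could be left out. The limits are the lack of replicates, the differing strains, near-identical copies and antisense reading frames. DESeq2 size factors, TMM without RP genes, no filter, a mean of at least 50 reads and a pseudocount of 1 left every median within its interval. Here the interval is an order-statistic interval over the intronless RP genes. It treats genes as if they were replicates and covers neither counting error nor differences between cultures. The filter settings removed none of these genes and so could not move the medians. With CPM on total counts the median log2 change of the intronless RP genes was −2.16 (LiCl over myriocin, polyadenylated), −2.82 (LiCl over fenpropimorph, ribo-depleted), −2.32 and −3.83 (LiCl over NaCl, polyadenylated and ribo-depleted), 0.52 and 0.14 (myriocin over fenpropimorph), −0.53 (deletion-labelled over wild type, polyadenylated), and −0.019 in place of 0.13 (high over low, ribo-depleted), a change of sign. TMM over the wild-type libraries gave 0.71 for myriocin over fenpropimorph, polyadenylated. On total counts *RPL15B* had 0.011 (LiCl over myriocin) and 0.087 (LiCl over NaCl), *RPL41A* −0.16 (myriocin over fenpropimorph), all polyadenylated, and *RPP2B* −0.046 and *RPP0* −0.049 (high over low, ribo-depleted), all of the opposite sign. On total counts the median of all CDS moved by between −0.37 (LiCl over NaCl, ribo-depleted) and 0.41 (LiCl over NaCl, polyadenylated), a rescaling that by construction moves all CDS of a pair of libraries nearly alike. The cause of the differences between scalings was not tested.

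With the 16 genes that share a window left out, which leaves 20, the genes at least 2-fold lower in LiCl numbered 20 and 19 (myriocin, polyadenylated and ribo-depleted), 18 and 20 (fenpropimorph), 20 and 20 (NaCl) and 16 and 18 (glucose), because fewer genes were counted. With summed paralogues the 1 gene at least 2-fold higher became 0 for myriocin over fenpropimorph (polyadenylated) and for high over low cells (ribo-depleted). On total counts the first was also 0, and 1 gene was at least 2-fold lower for myriocin over fenpropimorph (ribo-depleted) and for the deletion-labelled culture (polyadenylated). The 122 values of the difference between intronless and intron-containing RP genes under these alternatives moved by less than a tolerance taken from the spread over genes. That tolerance was wider than the difference itself in each comparison, so the direction of the difference was not tested. A change of scaling shifts both groups alike and could not move it. Without Ty and low CDS in the denominator the share of CDS reads was 0.183%, 0.205%, 1.08%, 1.54%, 7.09%, 4.92%, 7.95% and 3.84% in polyadenylated and 0.596%, 0.541%, 0.437%, 0.544%, 3.70%, 2.70%, 4.84% and 1.53% in ribo-depleted libraries (high, low, deletion-labelled and wild type in LiCl, then myriocin, fenpropimorph, NaCl and glucose).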
